A study of Mus musculus with 6 samples.

Results

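The Wnt ligands and Frizzled receptors described here are 4 genes, Fzd7, Fzd9, Wnt10a and Wnt11, chosen by symbol from the 651 genes that the authors deposited as differing between WT.GFP+ and ERα-/-.GFP+ mammary epithelial cells (MECs). Donor MECs, wild-type or lacking the oestrogen receptor ERα, carried a GFP transgene under an actin promoter on a C57BL/6 background. They were engrafted intraductally, each genotype in a gland opposite the other, in NSG mice (NOD.Cg-Prkdc scid Il2rg tm1Wjl/SzJ), an immunodeficient strain, and GFP+ cells were sorted by FACS once the hosts were pregnant. RNA of 3 WT.GFP+ and 3 ERα-/-.GFP+ samples was sequenced; host age and day of pregnancy are not given for them, and glands were pooled for the cell suspensions. The germline lack of ERα, the graft into a host gland and the pregnancy of the host therefore bear on these cells. The ERα-/-.GFP+ MECs are compared only with WT.GFP+ MECs that had the same kind of graft and the same host strain. Whether the sequenced samples shared hosts is not given by their names.

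Wnt ligands are secreted, lipid-modified glycoproteins that act on neighbouring cells. They bind Frizzled receptors, which span the membrane and pass the signal either to β-catenin and the TCF/LEF transcription factors or to β-catenin-independent branches that shape cell polarity and movement. In the mammary gland, ERα and the progesterone receptor act in luminal cells, whereas basal cells, the layer of contractile myoepithelium and its progenitors, respond to Wnt signals. Wnt4 is a well-known hormone-linked ligand of this exchange.

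The comparison asks how the absence of ERα from the grafted epithelium goes along with gene expression during pregnancy. Each listed gene has, for each genotype, the mean of its raw read counts and the mean of its normalised values in log2 CPM, which are read counts scaled to the size of the library; values per sample were not analysed here, and the variation within a genotype can therefore not be given. Intervals below are 95% counting intervals, exact for Poisson counts, on the reads summed over the 3 samples; reads amplified by PCR are not independent molecules, and the intervals leave out the variation between samples. Only genes past the authors' thresholds on fold and false discovery rate are in the tables, and the smallest fold between mean normalised values among the genes lower in ERα-/-.GFP+ MECs was 2.02. Hence all 4 genes had to differ to be described at all, and their differences are given as sizes without a test. The mean depth, estimated from the ratio of mean counts to CPM, was 27190484 reads per WT.GFP+ sample and 29326773 per ERα-/-.GFP+ sample. The tables name the genotypes only as selections, which were matched by the direction the study states, so the direction is not an independent result. Esr1, which encodes ERα, was in neither table and could not check the labels.

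All 4 genes were lower in ERα-/-.GFP+ MECs. This is also true of 86.9% of the 651 listed genes (566 lower, 85 higher), and nothing is read from it. Fzd7 was 4.03-fold lower, Wnt10a 3.84-fold, Fzd9 3.24-fold and Wnt11 2.63-fold, as folds between the mean normalised values. The median fold of the 566 lower genes was 3.34. A value more than 3-fold lower was thus seen for 3 of the 4 genes, beside 363 of the 651 listed genes (55.8%). The 651 include the 85 higher genes, which could not be among the 363. The share among the 566 lower genes is therefore larger, and nothing is read from 3 of 4.

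Fzd7, a receptor of basal mammary cells that binds several Wnt ligands, was the most abundant of the 4. The gene (ENSMUSG00000041075) is a single exon on chromosome 1 from 59482424 to 59486955 on the plus strand (GRCm38, GENCODE). It had a mean count of 1817 reads in WT.GFP+ MECs (95% counting interval 1769 to 1866) and of 492 reads in ERα-/-.GFP+ MECs (468 to 518). In normalised values these were 5.99 and 3.98 log2 CPM, a difference of -2.01. The ratio of depth-scaled reads was 0.251 (0.237 to 0.266), so the counting intervals of the genotypes lay far apart.

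Fzd9, a further Frizzled receptor, was the least abundant. The gene (ENSMUSG00000049551) is a single exon on chromosome 5 from 135248938 to 135251230 on the minus strand. Its mean count was 36.0 reads in WT.GFP+ MECs (29.5 to 43.5) and 11.7 reads in ERα-/-.GFP+ MECs (8.13 to 16.2), from 108 and 35 reads in all. The mean normalised values were 0.43 and -1.27 log2 CPM, a difference of -1.70. With so few reads the depth-scaled ratio of 0.300 had a wide interval (0.199 to 0.444), which spans folds from 2.25 to 5.02. The size of the Fzd9 difference is therefore the least certain of the 4.

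Wnt10a encodes a ligand known for its part in β-catenin signalling. The gene (ENSMUSG00000026167) lies on chromosome 1 from 74791516 to 74804179 on the plus strand, with 4 exons. Its mean count was 266 reads in WT.GFP+ MECs (248 to 285) and 75.0 reads in ERα-/-.GFP+ MECs (65.5 to 85.5). The mean normalised values were 3.29 and 1.35 log2 CPM, a difference of -1.94. The depth-scaled read ratio was 0.261 (0.224 to 0.303), whose interval overlapped that of Fzd7.

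Wnt11, a ligand best known for β-catenin-independent signalling, had the smallest difference. The gene (ENSMUSG00000015957) lies on chromosome 7 from 98835112 to 98855195 on the plus strand, with 6 annotated transcripts. Its mean count was 656 reads in WT.GFP+ MECs (628 to 686) and 257 reads in ERα-/-.GFP+ MECs (239 to 276). The mean normalised values were 4.60 and 3.20 log2 CPM, a difference of -1.40. The depth-scaled read ratio of 0.364 (0.334 to 0.395) lay above the intervals of Fzd7 and Wnt10a, and overlapped that of Fzd9.

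**Figure D1:**
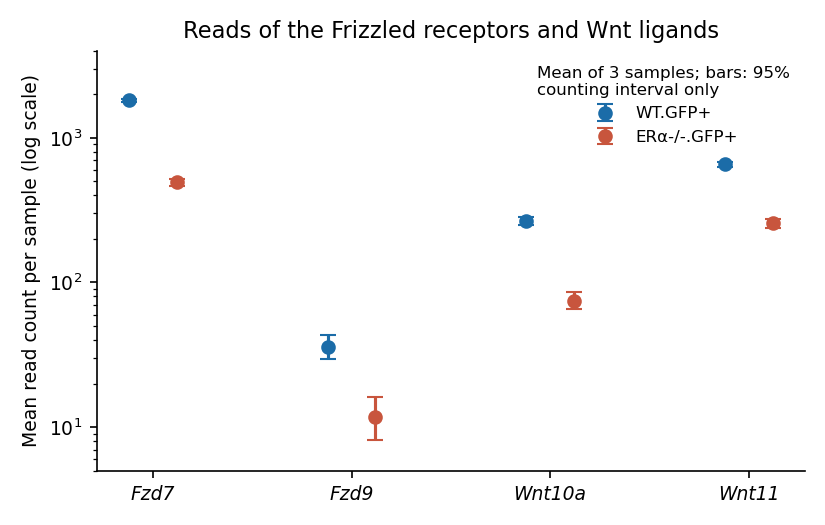
Mean read count per sample (log axis) of the 4 genes in WT.GFP+ (blue) and ERα-/-.GFP+ (red) MECs. Points are means of 3 samples and bars are 95% counting intervals, which leave out the spread between samples; the intervals of the genotypes do not overlap for any of the 4 genes, and the bars of Fzd9, at 36.0 and 11.7 reads, are the widest.

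In the plot of all listed genes by their values in both genotypes, the receptors and ligands ran from 0.43 (Fzd9) to 5.99 (Fzd7) log2 CPM in WT.GFP+ MECs. Fzd7 lay beside the least abundant basal markers and Fzd9 near the sparsely counted end.

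**Figure D2:**
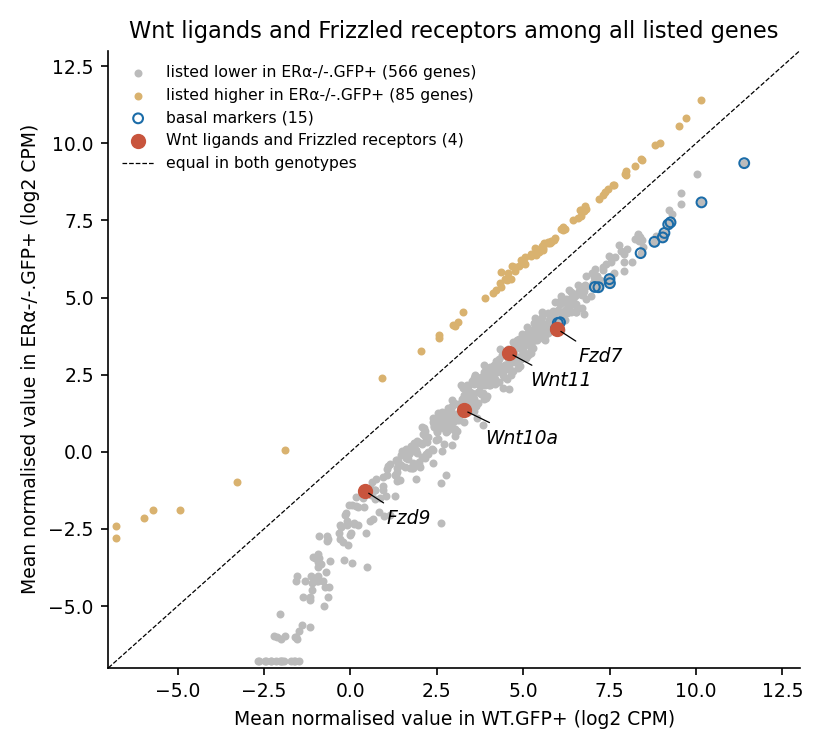
Mean normalised value (log2 CPM) in WT.GFP+ MECs (x axis) against ERα-/-.GFP+ MECs (y axis) for the 651 listed genes, with 566 lower (grey) and 85 higher (ochre), the 4 receptors and ligands in red and 15 basal markers circled in blue. Genes between the clouds are missing by construction, as only genes past the authors' thresholds are listed, and genes without reads sit at the floor of the scale at -6.78.

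To compare levels between genes, CPM were divided by the length of the merged exons. Fzd7 had 14.0 CPM per kb in WT.GFP+ MECs (13.6 to 14.4), Wnt11 5.85 (5.60 to 6.12), Wnt10a 3.96 (3.69 to 4.24) and Fzd9 0.587 (0.482 to 0.709). The order was the same in ERα-/-.GFP+ MECs, with 3.47 CPM per kb for Fzd7 (3.30 to 3.66), 2.22 for Wnt11 (2.07 to 2.39), 1.03 for Wnt10a (0.902 to 1.18) and 0.181 for Fzd9 (0.126 to 0.252). No neighbours in either order overlapped in their counting intervals. Per kb, Fzd7 stood 23.8 times above Fzd9 in WT.GFP+ MECs and 19.2 times above it in ERα-/-.GFP+ MECs. The Fzd7 level was 2.39 times that of Wnt11 in WT.GFP+ MECs and 1.56 times in ERα-/-.GFP+ MECs. Whether neighbours in the order differ beyond the spread between samples was not tested.

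**Figure D3:**
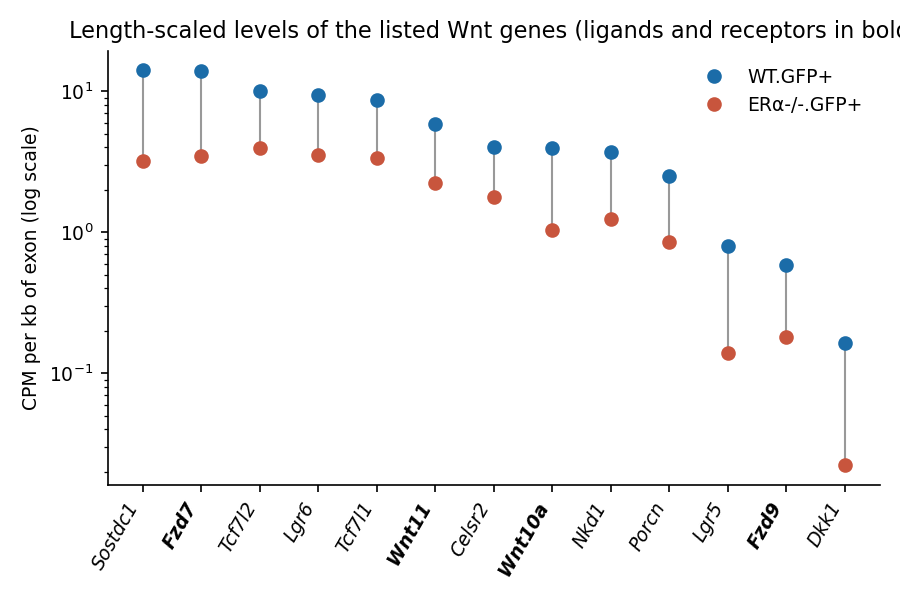
CPM per kb of exon (log axis) of the 13 listed Wnt pathway genes in WT.GFP+ (blue) and ERα-/-.GFP+ (red) MECs, ordered by the WT.GFP+ level, with lines joining the genotypes. By merged exon length, Fzd7 (14.0) lay next to Sostdc1 (14.1) at the top in WT.GFP+ MECs, Wnt11 and Wnt10a in the middle and Fzd9 (0.587) near the bottom.

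Few sequences of the 4 genes were shared with other genes. No 85-nt stretch of a transcript of Fzd7, Fzd9 or Wnt10a occurred in a transcript of another gene. Of 4294 such stretches of Wnt11, 280 (6.52%) were shared with Gm8398, a processed pseudogene on the opposite strand inside Wnt11 (chromosome 7, 98854732 to 98855095); the library kit does not mark strand, so reads of the pair cannot be told apart there. The directly neighbouring protein-coding genes were Cdk15 and Gm973 (Fzd7), Baz1b and Fkbp6 (Fzd9), Wnt6 and Cdk5r2 (Wnt10a), and Thap12 and Uvrag (Wnt11). None of them was in the tables, including Wnt6, whose end lies 6193 bp from the start of Wnt10a.

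The bases before the start sites of these genes were read for a few short motifs, as a description. RefSeq promoter entries (GRCm38.p6) matched 3 of the 4 genes. The stretches are shown 5′ to 3′, with capitals marking motif matches. Those of Wnt11 and Fzd7 end at the base before the RefSeq start, which for Fzd7 lies upstream of the GENCODE start given above. The Wnt11 stretch is chr7:98834862-98835111 on the plus strand, the Fzd7 stretch chr1:59481897-59482146 on the plus strand, and the Fzd9 stretch chr5:135251231-135251297 on the minus strand. The Fzd9 stretch holds the 67 bases outside GENCODE exons and ends at the GENCODE start, without the 183 exonic bases between it and the RefSeq start.
Wnt11: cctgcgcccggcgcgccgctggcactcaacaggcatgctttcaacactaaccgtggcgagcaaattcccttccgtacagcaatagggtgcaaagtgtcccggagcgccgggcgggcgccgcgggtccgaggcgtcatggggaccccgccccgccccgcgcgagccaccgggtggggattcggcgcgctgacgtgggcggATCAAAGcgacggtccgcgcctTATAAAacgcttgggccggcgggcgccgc
Fzd7: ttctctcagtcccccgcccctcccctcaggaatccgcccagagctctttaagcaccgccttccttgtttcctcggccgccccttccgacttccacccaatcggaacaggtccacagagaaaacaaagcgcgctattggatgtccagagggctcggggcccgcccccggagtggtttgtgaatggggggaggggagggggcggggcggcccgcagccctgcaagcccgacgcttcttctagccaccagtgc
Fzd9: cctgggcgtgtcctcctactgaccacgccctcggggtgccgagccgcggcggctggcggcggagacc

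Both strands of the 250 bases before each RefSeq start were searched for the TCF/LEF motif ATCAAAG, the AP-1 motif TGANTCA, the SNAI E-box CAGGTG, the TATA box TATAAA, the oestrogen response element GGTCANNNTGACC and its half-site AGGTCA, which can overlap the full element. Wnt11 held the TCF/LEF motif 51 to 45 bases before its start and a TATA box 29 to 24 bases before it, both on the plus strand. The TCF/LEF motif occurred in 3.21% and the TATA box in 12.4% of the 32851 mouse promoter windows of the same length. Fzd7, Fzd9 and the window before the other Wnt11 start held none of the 6 motifs. The remaining motifs were found in 6.75% (AP-1), 17.2% (SNAI E-box), 14% (half-site) and 0.0639% (full element) of all windows. A match is a stretch of letters and not a bound site, and no match says only that these letters are not in the window.

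Beyond the 4 genes, the deposited tables held no Wnt ligand or Frizzled receptor. Of 19 Wnt ligand genes, Wnt10a and Wnt11 were listed (10.5%), and of 10 Frizzled genes, Fzd7 and Fzd9 (20%), beside 2.34% of the 21951 protein-coding genes of the annotation in the lower table (513 genes). The 4 genes were chosen from the tables, so nothing is read from these shares. The ligands linked to ERα or the progesterone receptor in the mammary gland, Wnt4, Wnt5a and Wnt7b, were in neither table. The same held for the ligands Wnt1, Wnt2, Wnt2b, Wnt3, Wnt3a, Wnt5b, Wnt6, Wnt7a, Wnt8a, Wnt8b, Wnt9a, Wnt9b, Wnt10b and Wnt16, and for Fzd1, Fzd2, Fzd3, Fzd4, Fzd5, Fzd6, Fzd8 and Fzd10. A gene in neither table may have been removed for low expression, may have missed the thresholds or may not have differed, and these cases cannot be told apart here.

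Of 95 genes in the Wnt lists, 13 were in the lower table and 0 in the higher table. Without the 4 genes themselves, these were 9 of 91 genes, or 9.89%. The Wnt lists were drawn up with earlier results of these data known. The share may be partly set by that choice, and nothing is read from it. The share among all protein-coding genes was 2.34%, as given above; the number of genes the authors tested is not known, and many annotated genes are not expressed in MECs. The median difference of the 13 genes was -1.57, beside -1.74 for all 566 lower genes. More than 3-fold lower were 6 of the 13. All 13 are lower genes, so the like background is the 363 such genes among the 566 lower genes, not the 55.8% of all listed genes.

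Among genes that act with ligands and receptors at the cell surface, 2 of 9 R-spondin and Lgr genes were listed. Lgr5, an R-spondin receptor and a stem cell marker in several epithelia, had a mean count of 237 reads in WT.GFP+ MECs but 41.3 reads in their ERα-/-.GFP+ counterparts, a difference of -2.52 between normalised values. Lgr6, a related receptor, had 1750 and 726 reads, a difference of -1.40. Lgr5 thus had a larger difference than Fzd7, while Lgr6 was close to Wnt11. None of 6 co-receptor genes, Lrp5 and Lrp6 included, was listed.

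Of 16 inhibitors of the pathway, 2 were listed. Sostdc1, a secreted antagonist of Wnt and BMP signalling, had mean counts of 701 and 164 reads in the WT.GFP+ and ERα-/-.GFP+ samples, a difference of -2.14. Dkk1, a secreted inhibitor that binds the Lrp co-receptors, had 11.7 and 1.33 reads, which are 35 and 4 reads in all. Its depth-scaled reads were 9.44 times lower (3.37 to 36.6). This interval lay above those of Wnt11, Lgr6, Tcf7l1, Tcf7l2 and Celsr2 and overlapped those of the other listed Wnt genes. Porcn, the enzyme that attaches the lipid to Wnt ligands, was 1 of 2 ligand maturation genes listed, with 205 and 73.0 reads and a difference of -1.55.

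Inside the cell, 3 of 16 signal transduction genes were listed. Tcf7l2 and Tcf7l1, DNA-binding partners of β-catenin, had differences of -1.34 (2377 and 1037 reads) and -1.36 (913 and 407 reads). Nkd1, an inhibitor of Dishevelled that is itself a Wnt target, had 465 and 160 reads and a difference of -1.57. Of 10 Wnt target genes, Lgr5 and Nkd1 were listed, both already counted above, whereas Axin2 was in neither table. Of 12 planar polarity genes, Celsr2, a large cadherin, was listed with 1239 and 596 reads and the smallest difference of the 13 Wnt genes, -1.17. Genes that promote signalling and genes that inhibit it were both among the lower genes. As 86.9% of all listed genes were lower, nothing is read from this. The counts per list stand beside 2.34% of all protein-coding genes in the lower table, with the limit on the choice of lists given above.

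The expression of the receptors and ligands was then set beside markers of the cell types the sort could hold. Of 20 basal markers, 15 were in the lower table and 0 in the higher table, beside 2.34% of protein-coding genes in the lower table and 86.9% of listed genes that were lower. Itga6, Itgb4, Jag1, Sparc and Vim were in neither table. The marker lists were also drawn up with earlier results of these data known, so nothing is read from 15 of 20. The 15 had a median difference of -1.95 and a range from -2.09 (Cnn1) to -1.73 (Krt15). The 15 were the keratins Krt5, Krt14, Krt15 and Krt17, the contractile genes Acta2, Actg2, Cnn1, Myh11, Myl9, Mylk and Tagln, the adhesion gene Cdh3, the oxytocin receptor gene Oxtr, and the transcription factor genes Snai2 and Trp63. Their summed level was 7718 CPM in WT.GFP+ and 1952 CPM in ERα-/-.GFP+ MECs, and none was at 0 reads. The part of basal cells in the lower values of the 4 Wnt genes was not tested. In a bulk sample, fewer cells of a type and less RNA per cell cannot be told apart.

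Relative to the mean log2 level of the 15 basal markers, Fzd7 differed between the genotypes by -0.08 and Wnt10a by -0.01 on the log2 scale. The 15 markers passed the same thresholds as the receptors and ligands, and basal markers in neither table are not in this mean. Closeness to the mean is therefore partly set by the selection, and nothing is read from it. The counting interval of the Fzd7 read ratio was apart from those of 7 of the 15 markers, and that of Wnt10a from 1 of 15. Fzd9 was 0.23 higher relative to them in ERα-/-.GFP+ MECs, and Wnt11 0.53 higher. All 15 basal markers had a larger difference than Wnt11, both in normalised values and in depth-scaled reads. The counting interval of the Wnt11 read ratio was apart from those of 14 of the 15 markers and overlapped that of Krt15. For Fzd9, all 15 markers had a larger difference in normalised values but 14 in depth-scaled reads, and the interval overlapped with every marker. Fzd7 was exceeded by 4 markers and Wnt10a by 8 in normalised values.

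**Figure D4:**
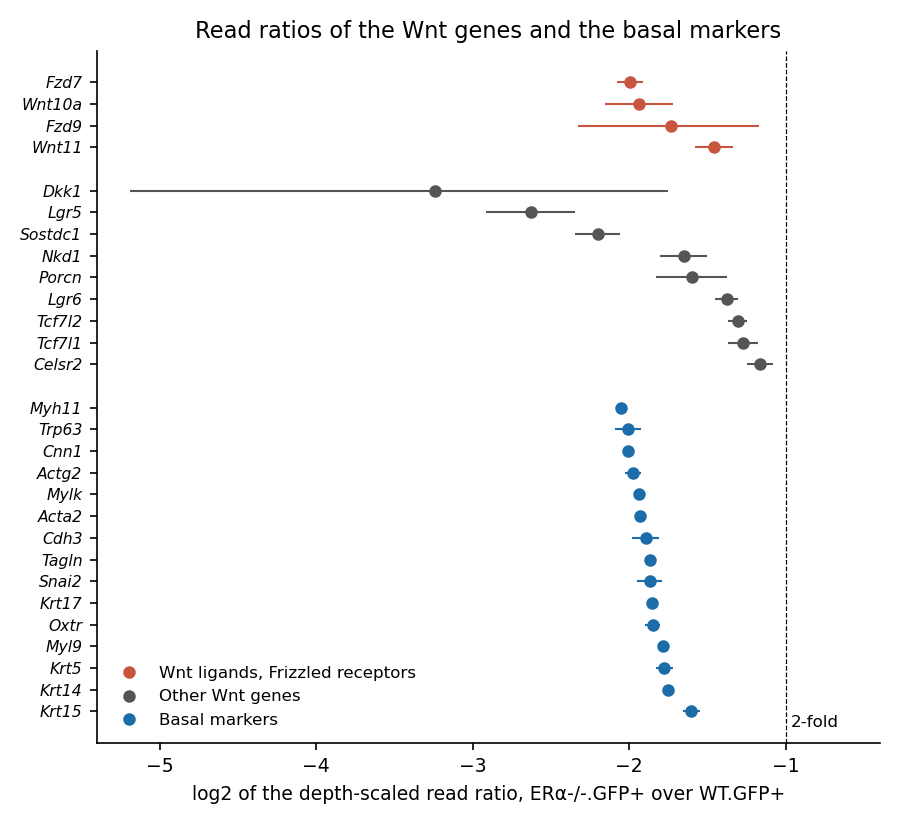
The log2 ratio of depth-scaled reads, ERα-/-.GFP+ over WT.GFP+ MECs, for the 4 receptors and ligands (red), the 9 other listed Wnt genes (grey) and 15 basal markers (blue), with 95% counting intervals as bars and the 2-fold line dashed. The basal markers lie between -2.06 and -1.60, Fzd7 (-1.99), Wnt10a (-1.94) and Fzd9 (-1.73) lie within that range, and Wnt11 (-1.46) lies to its right. Every gene shown passed the same thresholds, so basal markers that did not are missing.

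The leukocyte markers that were listed differed the opposite way. Of 21 T-cell and cytotoxic markers, 10 were in the higher table and 0 in the lower. The higher table held 85 of all 651 listed genes, and its share of the annotated genes was not computed. The 85 of 651 covers listed genes only and is no background for counts over whole marker lists. Nothing is read from the counts of T-cell, cytotoxic and leukocyte markers. The 10 markers had a summed level of 2836 CPM in WT.GFP+ and 6375 CPM in ERα-/-.GFP+ samples. The other 11 were in neither table: Cd3d, Cd3e, Cd3g, Cd4, Cd8a, Cd8b1, Gzma, Lck, Trac, Trbc2 and Zap70. Gzmb, which encodes granzyme B, was at 1140 CPM in WT.GFP+ and 2689 CPM in ERα-/-.GFP+ samples. Of 8 general leukocyte markers, 4 were higher, with summed levels of 1313 and 2743 CPM. The other 4, Cd48, Cd52, Laptm5 and Ptprc, were in neither table. The listed markers were thus present in both genotypes, none of them at 0 reads. The cells had been sorted for GFP, and the study's sorting methods name an antibody to the leukocyte marker CD45. Whether that antibody was used for the sequenced cells is not stated. The part of leukocytes in the lower Wnt gene values was not tested. Of 17 luminal markers, only Pgr was listed, in the lower table (5.88%, beside 2.34% of protein-coding genes). It had 129 and 36.3 reads and a difference of -1.82. None of 9 milk, 6 fibroblast, 5 endothelial and 5 adipocyte genes was listed.

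The listed genes whose pair of mean normalised values lay nearest to each receptor or ligand were found by distance on the log2 scale, over the 2 genotype means and without scaling for length. Nearest to Fzd7 were Cdh3 (distance 0.04), Reln (0.07) and Mme (0.07), of which Cdh3 is one of the basal markers above. Nearest to Wnt10a were BC021891 (0.08), Cacnb4 (0.08) and Nipal4 (0.13), and nearest to Wnt11 were Adrbk2 (0.04), Eml1 (0.08) and Pcdh7 (0.10). Fzd9 had no neighbour as close, with Cntfr at 0.18, Dnal1 at 0.19 and Tceal6 at 0.22. With 2 points per gene, this likeness describes level and size of difference only.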

How the data were processed

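RNA of 3 WT.GFP+ and 3 ERα-/-.GFP+ samples, 10 ng each, was amplified with an oligo dT ultra-low-input kit, tagmented, amplified by 8 PCR cycles and sequenced as single-end 85-nt reads. The authors aligned reads to mm10 with HTSstation, kept the top expressed genes in ASAP and ran edgeR; counter, annotation and use of strand are not given in the sources used here. The deposited tables list genes past the authors' thresholds only. They hold mean raw counts (whole numbers when multiplied by 3) and mean normalised values, deposited as log2 CPM. The authors' fold change, p-value and FDR columns were not used. The table of genes lower in ERα-/-.GFP+ MECs is named in the opposite sense.

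Depth per genotype was the median of mean count over CPM over genes averaging 1000 reads or more (220 for WT.GFP+, 140 for ERα-/-.GFP+), an estimate that leans upwards. Depth-scaled read ratios had exact binomial intervals, which were checked on simulated data. Lengths and positions came from GENCODE M21, matched by Ensembl identifier for 650 of 651 genes, and promoters from RefSeq. Scripts ran on Python 3.11.15 with scipy 1.17.1, pandas 2.3.3 and numpy 2.4.6, and figures with matplotlib 3.10.9. Genes named are the 4 receptors and ligands, listed genes of the Wnt lists, absent ligands, Frizzled and ERα-linked genes, listed basal markers, the 3 nearest genes each, and neighbours; leukocyte, T-cell and luminal genes, and absent basal, co-receptor and target genes, were named after their values were seen. Genes and lists were chosen with earlier results of these data known. No comparison was tested, as no value per sample was used. Alternatives were other depth estimates, an added read, filters on counts and fold, and transcript length.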

Additional observations from a re-analysis of the deposited data

How the results depend on the processing

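The differences of the 4 receptors and ligands stayed within their counting error under all 4 alternatives, except that without depth scaling the difference of Fzd7 was -1.88. Their direction was kept too, but with differences this large none of these alternatives could have reversed it. The count of Wnt genes in the tables remained at 13 with a mean count of at least 10 in a genotype, and was 6 with more than 3-fold between normalised values; by depth-scaled reads, 8 were more than 3-fold lower. The median difference of the basal markers was -1.87 by depth-scaled reads. A filter for a mean count of at least 100 in WT.GFP+ MECs left it at -1.95. That filter could not change it, as the least counted listed marker, Cdh3, had 1691 reads. Of the 12 nearest genes, 7 were shared with those found from depth-scaled mean counts. Divided by its longest transcript, Wnt11 had 7.01 CPM per kb in WT.GFP+ MECs, and the other 3 genes the same level as before. The order of the 4 was thus unchanged. Among the 13 listed Wnt genes, Tcf7l2 was then the highest at 23.7 CPM per kb, above Sostdc1 (14.1) and Fzd7 (14.0). No paired analysis was possible because no values per sample were used and the groups share fewer than 2 replicate numbers; other normalisations and leaving out replicates were not run for the same lack of values per sample. Depth limits Fzd9 and Dkk1 most.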
